A study of Mus musculus with 8 samples.

Results

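The molecular clock of mouse liver was examined through 10 circadian clock and clock output genes, Arntl, Clock, Npas2, Per1, Per2, Per3, Cry1, Nr1d1, Nr1d2 and Dbp. They were found on the arrays by the accession of each probe, matched without its version to a mouse RefSeq symbol, and each gene was read from its probe with the highest mean signal. All 10 were measured, among 42982 features tested. The RNA came from the livers of male recombinant congenic mice whose strain label names NZO/HiBomDife crossed with C57BL/6J, where NZO is an inbred strain that becomes obese and diabetic. Livers of Ltg/NZO.5.3N/B mice (NB, 4 arrays, titled GrH) were compared with livers of Ltg/NZO.5.3N/N mice (NN, 4 arrays, titled GrN), which differ from them in 5.3 Mbp of chromosome 18. All mice were 5 weeks old and had been fed a diet with 45% fat, so no chow group and no other age entered the comparison. The labels give no hour of tissue collection. They leave unsaid whether every array stands for its own animal, and p-values then cover only the spread among these 8 arrays. None of the 10 genes lies on chromosome 18: the RefSeq table places Npas2 and Per2 on chromosome 1, Per3 on 4, Clock on 5, Arntl and Dbp on 7, Cry1 on 10, Per1 and Nr1d1 on 11, and Nr1d2 on 14.

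The circadian clock is a transcription loop in which BMAL1 (encoded by Arntl) pairs with CLOCK or NPAS2, binds E-box elements and activates the Per, Cry, Nr1d and Dbp genes. PER and CRY proteins then inhibit the activators, while the nuclear receptors REV-ERB alpha and REV-ERB beta (Nr1d1 and Nr1d2) repress Arntl through ROR elements. In mouse liver Arntl, Clock, Npas2 and Cry1 are known to peak from late night to morning, and Nr1d1, Nr1d2, Dbp and the Per genes in the day or around dusk, with meals, body temperature and glucocorticoids among the cues that set the time.

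Signal is given here as the log2 processed intensity relative to the 75th percentile of the same array, so that 0 is the percentile itself. That percentile lay between 445 and 584.4 intensity units, and 74.4% to 79.6% of probes were well above background. With 4 arrays in each genotype, precision is limited. Against the liver label, 7 of 7 hepatocyte markers (albumin, apolipoprotein and transthyretin genes among them) were well above background on all 8 arrays and had a mean log2 signal of 6.19 to 6.46 in NB and 6.25 to 6.39 in NN. Array NB 8 stood apart, with a mean correlation across features of 0.990 with the other arrays, where the remaining arrays had 0.993 to 0.994. Values that NB 8 moved most are given with and without it. In bulk liver, fewer cells of a type and less RNA per cell cannot be told apart. The comparison of genotypes as a whole called 3 features, all higher in NB. F830016B08Rik, an immunity-related GTPase gene on chromosome 18, was the largest of the named ones and was well above background on 6 of the 8 arrays, at −1.68 ± 0.19 in NB and −5.34 ± 0.50 in NN (SD, n = 4 each; log2 fold change 3.66, limma adjusted p = 0.00225).

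The comparison of NB with NN showed no called difference in any clock gene. Of the 10 genes 0 passed the test over all features (limma, Benjamini-Hochberg), against 0.00698% of all features, and each had an adjusted p of 1.00. None reached an unadjusted p under 0.05, against 1.69% of all features. The arrays of the genotypes overlapped for all 10, whereas 1.16% of all features did not overlap. The log2 fold change (NB minus NN) was positive for 4 genes and negative for 6, with a median of −0.01, and the median over all features was also −0.01. Leaving out 1 array was examined for 33 genes, these 10 and those named by rule from the further lists below. For 31 of the 33 it moved the log2 fold change by over 1.5 times or turned its sign, the exceptions being Arntl and Nfil3. None of the 33 was called, and several of their changes were near 0, where small shifts suffice. The same count was not made over all features, so it shows no trait of these genes. Every one of the 10 was well above background on all 8 arrays. Below, values are listed in the order NB 2, NB 3, NB 5 and NB 8, then NN 1, NN 4, NN 6 and NN 7.

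**Figure D1:**
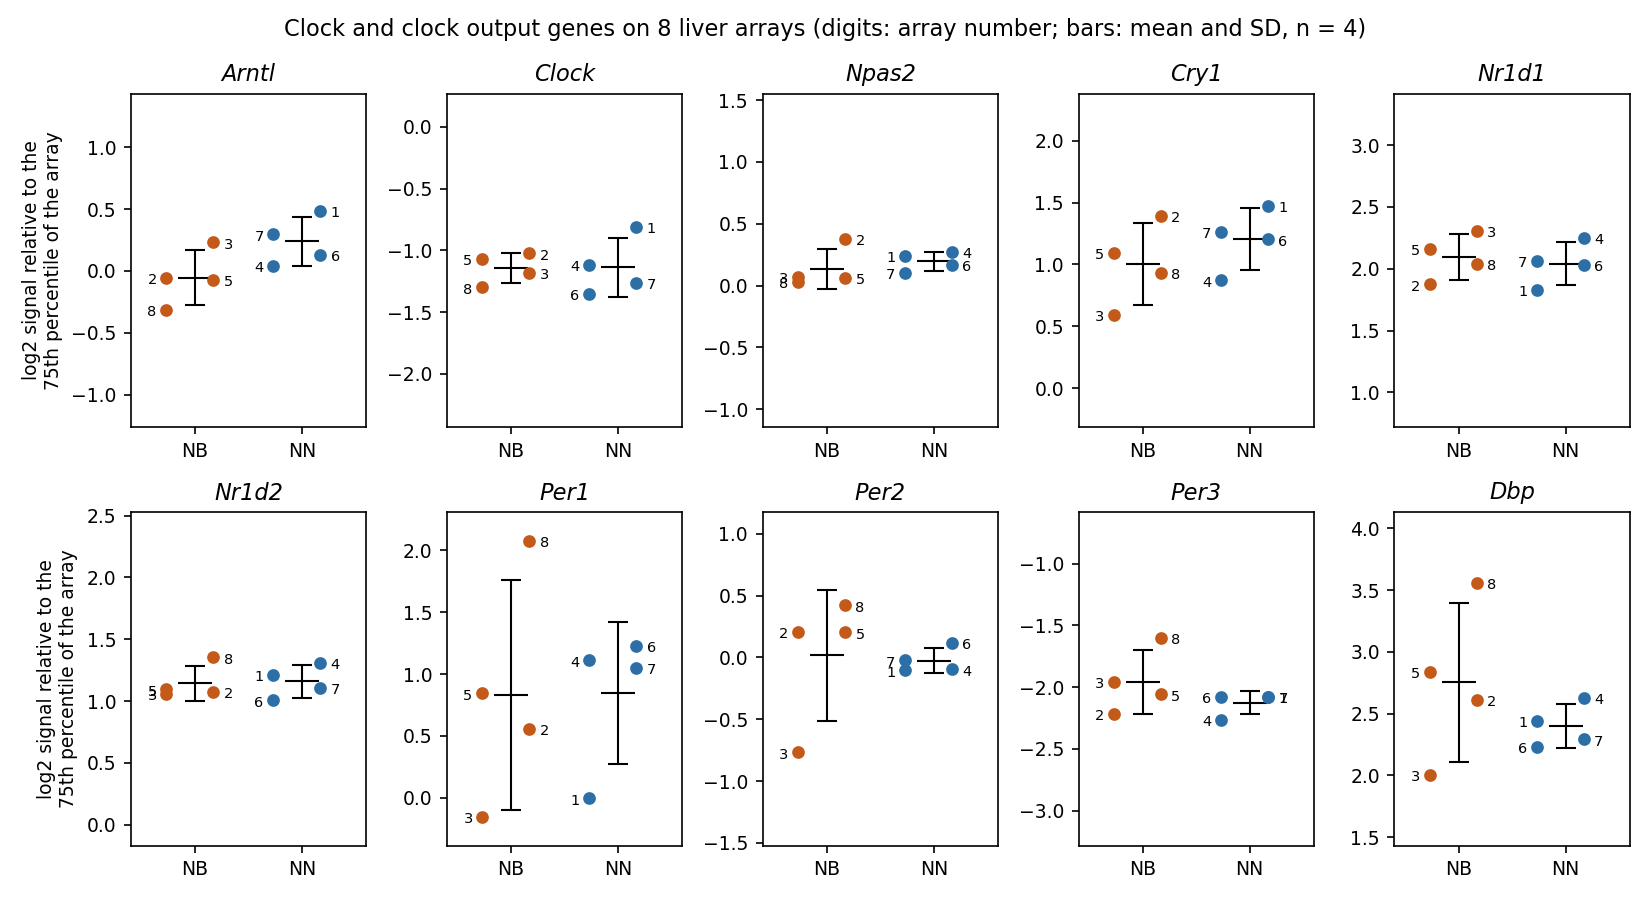
Log2 signal of the 10 clock genes above or below the array's 75th percentile (vertical axis, the same span in every panel), with NB left of NN, 1 point per array marked with the array number, and bars for the mean and SD of 4 arrays. The points of NB and NN overlap in every panel. Per1 and Dbp have the widest scatter, with NB 8 at the top of both, at 2.08 and 3.56.

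Among the activators, Arntl had the lowest unadjusted p of the 10 genes. Arntl, which encodes BMAL1, the partner of CLOCK or NPAS2 in the activator, read −0.06, 0.23, −0.08 and −0.32 in NB, against 0.49, 0.04, 0.13 and 0.30 in NN. The lowest 3 of the 8 readings were NB arrays and the highest 2 were NN arrays, but NB 3 lay above NN 4 and NN 6. Mean log2 signal was −0.05 ± 0.22 in NB and 0.24 ± 0.20 in NN (SD, n = 4 each). The log2 fold change was −0.29 (SE 0.138, 95% interval −0.61 to 0.02, limma, unadjusted p = 0.0630). On the linear scale this interval ran from 0.656 to 1.01 (NB over NN). With 1 array left out the change lay between −0.39 (without NB 3) and −0.21 (without NB 8).

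A promoter window of Arntl is shown because it holds the ROR element core through which REV-ERB and ROR proteins act. The table has a further Arntl window, which starts 46 bases upstream and holds none of the elements searched. The window shown is the RefSeq window of 250 bases before to 50 after a transcript start, chr7:113207261-113207560 on the + strand of GRCm38.p6, 5′ to 3′, with the core TAGGTCA in capitals, whose first base is base 31 of the transcript.
Arntl: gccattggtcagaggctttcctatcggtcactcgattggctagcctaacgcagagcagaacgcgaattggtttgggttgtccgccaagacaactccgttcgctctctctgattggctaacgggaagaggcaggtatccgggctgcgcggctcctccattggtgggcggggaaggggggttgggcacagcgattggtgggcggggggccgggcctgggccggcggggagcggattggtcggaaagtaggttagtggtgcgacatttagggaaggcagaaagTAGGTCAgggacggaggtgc
Of the 10 genes, 9 had a promoter in the RefSeq table, in 13 windows. The core was searched as TAGGTCA or TGGGTCA on both strands, and 6.45% of all 32851 promoter windows of this length held it, so the match is a description of these letters only.

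Clock, the partner of BMAL1 in the activator and a histone acetyltransferase, read −1.03, −1.18, −1.07 and −1.30 in NB, against −0.81, −1.12, −1.35 and −1.26 in NN. NN 1 was the highest array and NN 6 the lowest, and the NB arrays lay between them. The log2 fold change was −0.01 (SE 0.127), with an interval of 0.814 to 1.22 on the linear scale. Npas2, a paralog that can replace CLOCK, read 0.38, 0.07, 0.06 and 0.03 in NB, against 0.24, 0.28, 0.16 and 0.10 in NN. NB 2 was above all NN arrays and the remaining NB arrays were below all of them. Its log2 fold change was −0.06 (SE 0.0965), with an interval of 0.823 to 1.12, and it was −0.14 without NB 2 and −0.03 without NB 8.

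The Per genes, whose RNA is known to peak in the day or around dusk, encode inhibitors of the activators. Per1 and Per2 also respond acutely to glucocorticoids, to temperature and to feeding signals. Per1 read 0.56, −0.15, 0.84 and 2.08 in NB, against −0.01, 1.11, 1.23 and 1.05 in NN. Arrays NB 3 and NN 1 were the low readings and NB 8 the high one, so both genotypes held readings far below the others. The highest array was 4.70-fold above the lowest, yet the means were 0.83 ± 0.93 in NB and 0.85 ± 0.57 in NN (SD, n = 4 each), a log2 fold change of −0.02 (SE 0.458). The interval of 0.481 to 2.04 on the linear scale was the widest of the 10 genes. Without NB 8 the log2 fold change was −0.43, and without NB 3 it was 0.31.

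Per2 read 0.21, −0.77, 0.20 and 0.42 in NB, against −0.10, −0.10, 0.12 and −0.02 in NN. Array NB 3 was alone at the low end, and the remaining 3 NB arrays lay above all NN arrays. The means were 0.02 ± 0.53 in NB and −0.03 ± 0.10 in NN (SD, n = 4 each), with a log2 fold change of 0.04 (SE 0.233) and 0.30 without NB 3. Per3, which is dispensable for core rhythmicity but rhythmic itself, read −2.22, −1.96, −2.06 and −1.60 in NB, against −2.08, −2.27, −2.08 and −2.08 in NN. NB 8 was the highest array and NN 4 the lowest. The log2 fold change of Per3 was 0.17 (SE 0.131), and 0.05 without NB 8. A dimmer probe of Per3, designed to another RefSeq transcript, gave 0.37 (SE 0.253) and had a Pearson r of 0.685 with the brighter probe over the 8 arrays, with NB 8 highest on both.

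Windows of Per1 and Per3 are shown because E-boxes and D-boxes (sites of DBP and its relatives) are the elements through which the Per genes are known to be driven. Capitals mark the E-box CACGTG of Per1, whose first base is 166 before the start, and the D-boxes TTATGTAA of Per3, at 205 and 158 before the start. The windows are chr11:69098699-69098998 on the + strand for Per1 and chr4:151044616-151044915 on the − strand for Per3, both of GRCm38.p6, 5′ to 3′ along the gene.
Per1: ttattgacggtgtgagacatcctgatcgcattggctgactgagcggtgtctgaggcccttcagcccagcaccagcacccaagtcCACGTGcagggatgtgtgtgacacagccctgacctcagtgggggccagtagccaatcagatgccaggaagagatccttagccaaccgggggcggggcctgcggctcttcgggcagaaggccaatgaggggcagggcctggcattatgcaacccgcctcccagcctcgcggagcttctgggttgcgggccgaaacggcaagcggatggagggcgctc
Per3: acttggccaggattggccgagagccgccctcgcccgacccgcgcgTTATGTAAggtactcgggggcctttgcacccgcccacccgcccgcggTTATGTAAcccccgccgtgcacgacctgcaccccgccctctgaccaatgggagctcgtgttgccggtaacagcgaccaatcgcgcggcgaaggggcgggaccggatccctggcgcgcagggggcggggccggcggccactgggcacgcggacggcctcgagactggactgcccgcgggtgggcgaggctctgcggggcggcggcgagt
A further Per1 window in the table holds none of the elements searched. An E-box was present in 7.15% of all promoter windows. A D-box, searched as TTATGTAA or TTACGTAA on both strands, was present in 1.06%.

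Cry1, which encodes a direct inhibitor of the BMAL1 and CLOCK complex, read 1.39, 0.59, 1.10 and 0.94 in NB, against 1.47, 0.87, 1.20 and 1.27 in NN. NN 1 and NB 2 were the high readings, NB 3 was the low one, and NN 4 was the next lowest. Means were 1.00 ± 0.33 in NB and 1.20 ± 0.25 in NN (SD, n = 4 each), and the log2 fold change was −0.20 (SE 0.183), with an interval of 0.653 to 1.16 on the linear scale. It was −0.33 without NB 2 and −0.06 without NB 3.

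Of the nuclear receptors of the clock, Nr1d1, which encodes REV-ERB alpha, read 1.87, 2.31, 2.16 and 2.04 in NB, against 1.83, 2.25, 2.03 and 2.06 in NN. The order ran opposite to Cry1, with NB 3 and NN 4 high and NN 1 and NB 2 low. The genotype means were 2.09 ± 0.18 in NB and 2.04 ± 0.17 in NN (SD, n = 4 each), a log2 fold change of 0.05 (SE 0.121) with an interval of 0.857 to 1.25. Nr1d2, which encodes REV-ERB beta, read 1.07, 1.06, 1.09 and 1.35 in NB, against 1.21, 1.31, 1.01 and 1.11 in NN. NB 8 was the highest array, and the rest of NB lay within the range of NN. Its log2 fold change was −0.01 (SE 0.101), with an interval of 0.844 to 1.16.

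Windows of Cry1 and Nr1d1 are shown because these genes formed the most strongly opposed pair described below. Capitals mark the E-box CACGTG (60 before the start) and the E-box-like element CACGTT (79 before the start, here on the opposite strand as AACGTG) of Cry1, and the E-box-like element of Nr1d1 (28 before the start, also as AACGTG). The windows are chr10:85185005-85185304 for Cry1 and chr11:98775328-98775627 for Nr1d1, both on the − strand of GRCm38.p6, 5′ to 3′ along the gene.
Cry1: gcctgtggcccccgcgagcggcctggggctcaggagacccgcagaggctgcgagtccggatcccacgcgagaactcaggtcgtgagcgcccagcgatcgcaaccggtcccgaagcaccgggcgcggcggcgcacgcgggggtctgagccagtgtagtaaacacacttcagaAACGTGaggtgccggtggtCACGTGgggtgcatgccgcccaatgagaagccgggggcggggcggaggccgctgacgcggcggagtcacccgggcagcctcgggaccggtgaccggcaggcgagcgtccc
Nr1d1: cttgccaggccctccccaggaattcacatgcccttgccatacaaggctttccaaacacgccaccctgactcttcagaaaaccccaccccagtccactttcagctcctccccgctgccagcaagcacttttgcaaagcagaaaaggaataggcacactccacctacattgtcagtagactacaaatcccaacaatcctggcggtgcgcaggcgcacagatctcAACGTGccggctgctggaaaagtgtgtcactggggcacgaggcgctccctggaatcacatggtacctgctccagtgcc
The E-box-like element was present in 4.68% of all promoter windows. In all, 5 of the 9 genes held at least 1 of the 4 kinds of element, and none was found in the windows of Clock, Npas2, Nr1d2 and Dbp, which says only that these letters are not in these windows.

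The output gene Dbp encodes a PAR-domain transcription factor that drives daily expression of detoxification and metabolic genes through D-boxes. Dbp read 2.61, 2.00, 2.84 and 3.56 in NB, against 2.44, 2.63, 2.23 and 2.29 in NN. The NB arrays enclosed all NN arrays, with NB 5 and NB 8 above and NB 3 below them. Means were 2.75 ± 0.64 in NB and 2.40 ± 0.18 in NN (SD, n = 4 each). The log2 fold change of 0.35 (SE 0.284, interval −0.29 to 1.00) was the largest positive one among the 10 genes, and it was 0.08 without NB 8 and 0.60 without NB 3. A further probe of Dbp gave 0.34 (SE 0.298) and had a Pearson r of 0.965 with the brighter probe over the 8 arrays.

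**Figure D2:**
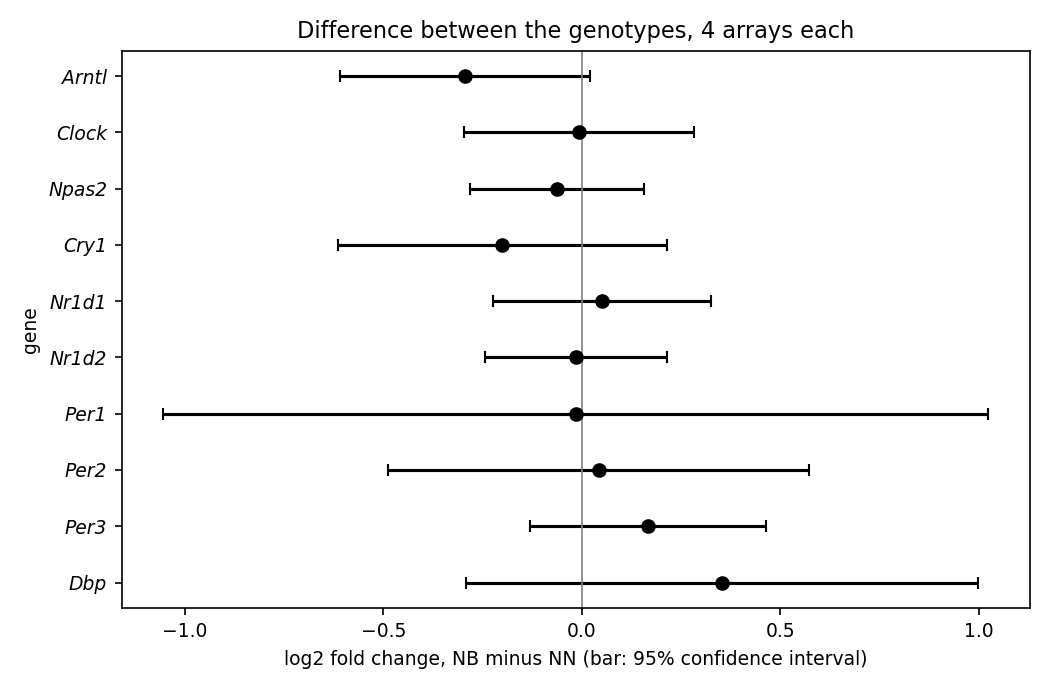
Log2 fold change, NB minus NN (horizontal axis), of each clock gene from limma, with 95% confidence intervals from 4 arrays in each genotype. All 10 intervals cross 0, and they are widest for Per1 (−1.06 to 1.03) and Dbp (−0.29 to 1.00).

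The genes differed from each other in how far they varied between arrays. Per1 had an SD of 0.72 over the 8 arrays (log2), at percentile 98.9 of all features, followed by Dbp (0.48, percentile 95.2), Per2 (0.36, percentile 88.1) and Cry1 (0.29, percentile 80.8). Arntl was at percentile 73.9, Per3 at 62.3 and Clock at 53.0. Nr1d1, Nr1d2 and Npas2 were at percentiles 49.3, 31.6 and 29.3, at or below the middle of all features. Under normexp background correction all 10 percentiles were higher, with Nr1d1 at 84.5, Nr1d2 at 51.5, Npas2 at 52.1 and Arntl at 93.8, so these 3 genes were then not below the middle. The median SD of the 10 genes was 0.227, and that of all features was 0.168. A single array carried much of the spread for some genes: without NB 8 the SD of Dbp was 0.28 and that of Per3 0.10, without NB 3 the SD of Per2 was 0.19, and without NN 1 the SD of Clock was 0.12.

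**Figure D3:**
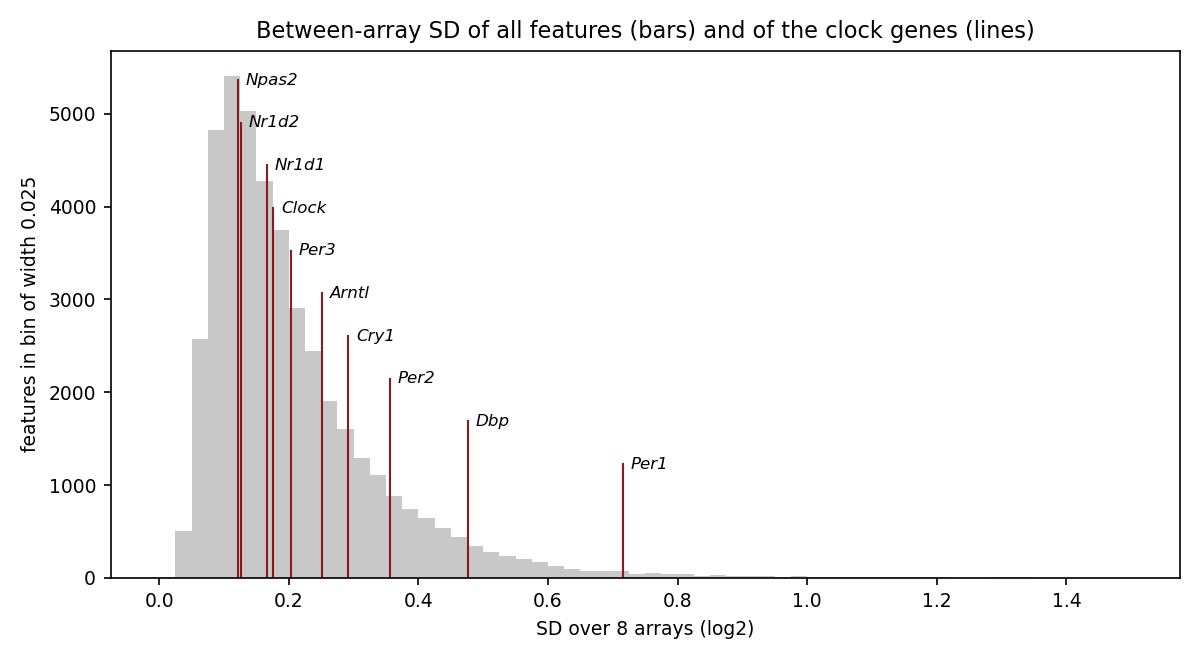
Histogram of the SD over 8 arrays (log2, horizontal axis) of all features tested, with the number of features in each bin on the vertical axis, and vertical lines at the SD of each clock gene, whose heights carry no value. Per1 (0.72) and Dbp (0.48) lie in the upper tail, while Nr1d1, Nr1d2 and Npas2 lie within the bulk. A further 21 features above an SD of 1.5 are outside the axis.

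The state of the clock on each array was read from the deviation of every gene from its own mean over the 8 arrays. NB 8 had the highest reading of 5 genes (Per1, Per2, Per3, Nr1d2 and Dbp) and the lowest of 2 (Arntl and Npas2). NB 3 had the lowest reading of 4 genes (Per1, Per2, Cry1 and Dbp) and the highest of Nr1d1. NN 1 had the highest reading of 3 genes (Arntl, Clock and Cry1) and the lowest of Nr1d1. The extremes thus fell on arrays of both genotypes, and NB 5 and NN 7 held none.

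In terms of the known phases, NB 8 had all 4 genes of the late night and morning set below their means and all genes of the day and dusk set except Nr1d1 (−0.03) above theirs. There, Dbp deviated by 0.98, Per1 by 1.24 and Arntl by −0.41. NN 1 had the opposite order, with Clock at 0.33, Arntl at 0.40 and Cry1 at 0.37, and with Nr1d1 at −0.24 and Per1 at −0.84. Nr1d2, at 0.06, was the gene of the day and dusk set above its mean there. NB 3 followed neither order, since Nr1d1 (0.24) and Arntl (0.14) were above their means while Per1 (−0.99), Per2 (−0.76), Dbp (−0.57) and Cry1 (−0.51) were below.

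An opposition score, the mean deviation of Arntl, Clock and Npas2 minus that of Nr1d1, Dbp and Per3, was 0.17, 0.09, −0.18 and −0.70 in NB, against 0.40, 0.03, 0.08 and 0.12 in NN. NB 2 and NB 3 lay within the range of NN, while NB 5 and NB 8 lay below it. The means were −0.156 ± 0.392 in NB and 0.156 ± 0.169 in NN (SD, n = 4 each), and no test was made of this score. The low NB mean rested on NB 8, since the mean of the same scores over the other 3 NB arrays was 0.0254 ± 0.182 (SD, n = 3). The sign of an NN score depends on the arrays that set the mean: with deviations taken over the 7 arrays without NB 8, NN 4 had −0.0749 and NN 6 had −0.0199, and with genotype means removed NN 4, NN 6 and NN 7 were below 0.

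**Figure D4:**
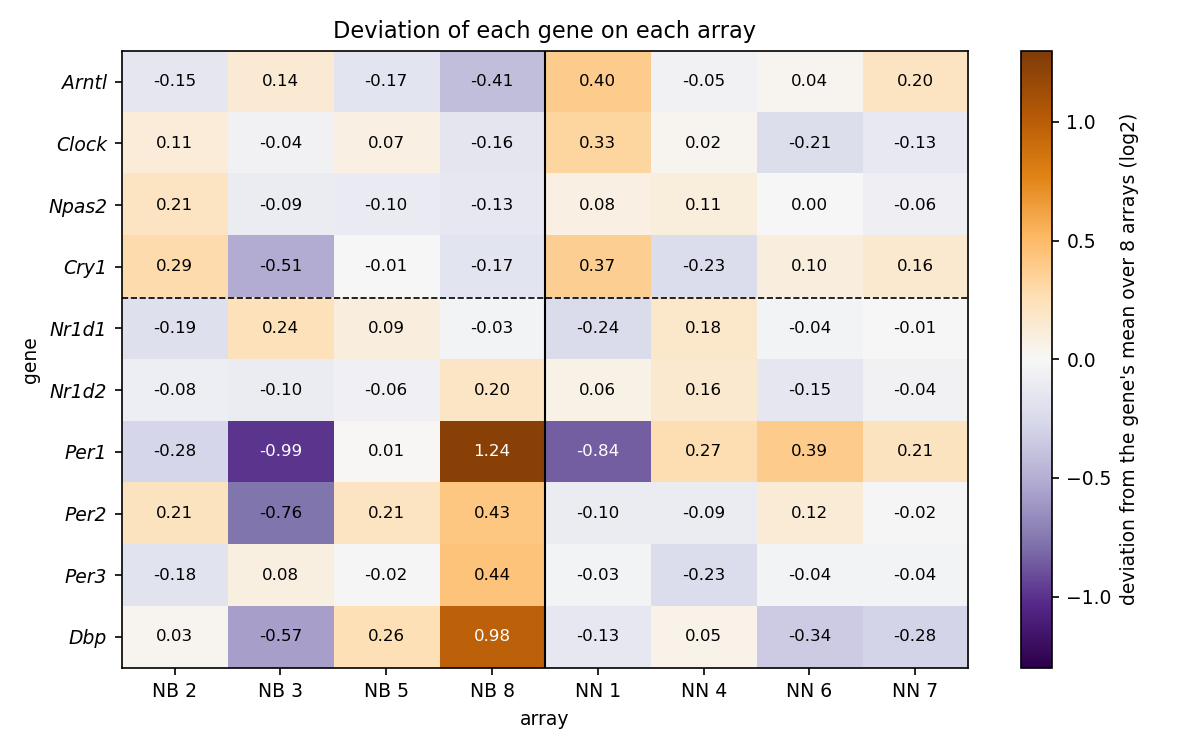
Deviation of each clock gene (rows) on each array (columns, NB left of NN) from its mean over the 8 arrays, in log2 units and printed in each cell, with orange above and purple below the mean. The dashed line divides genes known to peak from late night to morning (above) from genes known to peak in the day or at dusk (below). NB 8 and NN 1 have opposite patterns across the line, and Per1 on NB 8 (1.24) and NB 3 (−0.99) are the extremes.

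Whether genes known for opposed phases also opposed each other from array to array was measured by correlation over the 8 arrays, for all 45 pairs. With 0 of 45 pairs past the adjusted threshold, by Pearson or Spearman correlation, no pair was called, and 7 had an unadjusted exact permutation p under 0.05. Of the 24 pairs from opposed phases, 21 had a negative r, with a median of −0.313. Of the 21 pairs within a phase, 18 had a positive r, with a median of 0.409. The pairs share arrays and genes and the phases were assigned after values were seen, so these counts are a description. Without NB 8 the counts were 12 of 24 negative and 13 of 21 positive, and without NN 1 they were 17 of 24 and 15 of 21.

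The textbook pair of Arntl and its repressor gene Nr1d1 showed little opposition here. Its Pearson r was −0.160 (n = 8, exact permutation p = 0.700, adjusted p = 0.913) and its Spearman rho −0.143 (exact permutation p = 0.752, adjusted p = 0.956). Without the 2 arrays farthest from the median of Arntl, NN 1 and NB 8, r was 0.284, and without NN 1 alone it was 0.332, so the sign rested on that array. The relation of the other activators to Nr1d1 was also negative and not called, with r of −0.470 for Npas2 and −0.421 for Clock (adjusted exact permutation p = 0.619 for both). Their rho was −0.381 and −0.262 (adjusted exact permutation p = 0.956 for both), and r without the 2 farthest arrays was −0.726 and −0.121.

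Cry1 and Nr1d1 were the most strongly opposed pair. Their r was −0.901 (n = 8, exact permutation p = 0.00231, adjusted p = 0.104) and rho −0.881 (exact permutation p = 0.00724, adjusted p = 0.241). Without the 2 arrays farthest from the median of Cry1, NN 1 and NB 3, r was −0.772. It lay between −0.948 and −0.853 with any 1 array left out, and was −0.915 with genotype means removed and −0.912 with the means of the slide rows removed. The smallest adjusted p over these settings was 0.0536, without NB 8, and none passed. The means of the slide columns were not removed. In slide column 1, NN 1 and NB 2 read 1.47 and 1.39 for Cry1 and 1.83 and 1.87 for Nr1d1. In slide column 2, NB 3 and NN 4 read 0.59 and 0.87 for Cry1 and 2.31 and 2.25 for Nr1d1. With the slide column as a block, the SE of the genotype difference fell from 0.183 to 0.0806 for Cry1. For Nr1d1 it fell from 0.121 to 0.0709. The part of slide position in this correlation was not tested.

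Arntl and Dbp were opposed, with r of −0.788 (n = 8, exact permutation p = 0.0208, adjusted p = 0.303) and rho of −0.762 (exact permutation p = 0.0368, adjusted p = 0.413). Their r was −0.854 without NN 1 and NB 8, and −0.574 without NB 8 alone. Per1 and Per2 went together, with r of 0.746 (n = 8, exact permutation p = 0.0346, adjusted p = 0.303) and rho of 0.595 (exact permutation p = 0.132, adjusted p = 0.744). That relation rested on NB 3 and NB 8, since r was 0.174 without them. Among the remaining pairs examined, r was 0.409 for Arntl with Clock, 0.189 for Arntl with Npas2, −0.169 for Nr1d1 with Dbp and 0.0333 for Nr1d1 with Per3 (adjusted exact permutation p from 0.619 to 0.998). The rho of the same 4 pairs was 0.167, 0.333, −0.0714 and 0.119, all with an adjusted exact permutation p of 0.956. Without the 2 arrays farthest from the median, their r was −0.739, −0.473, 0.0362 and 0.776, so each of them except Nr1d1 with Per3 changed sign. Each slide row held 4 arrays, too few for a correlation within a row.

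**Figure D5:**
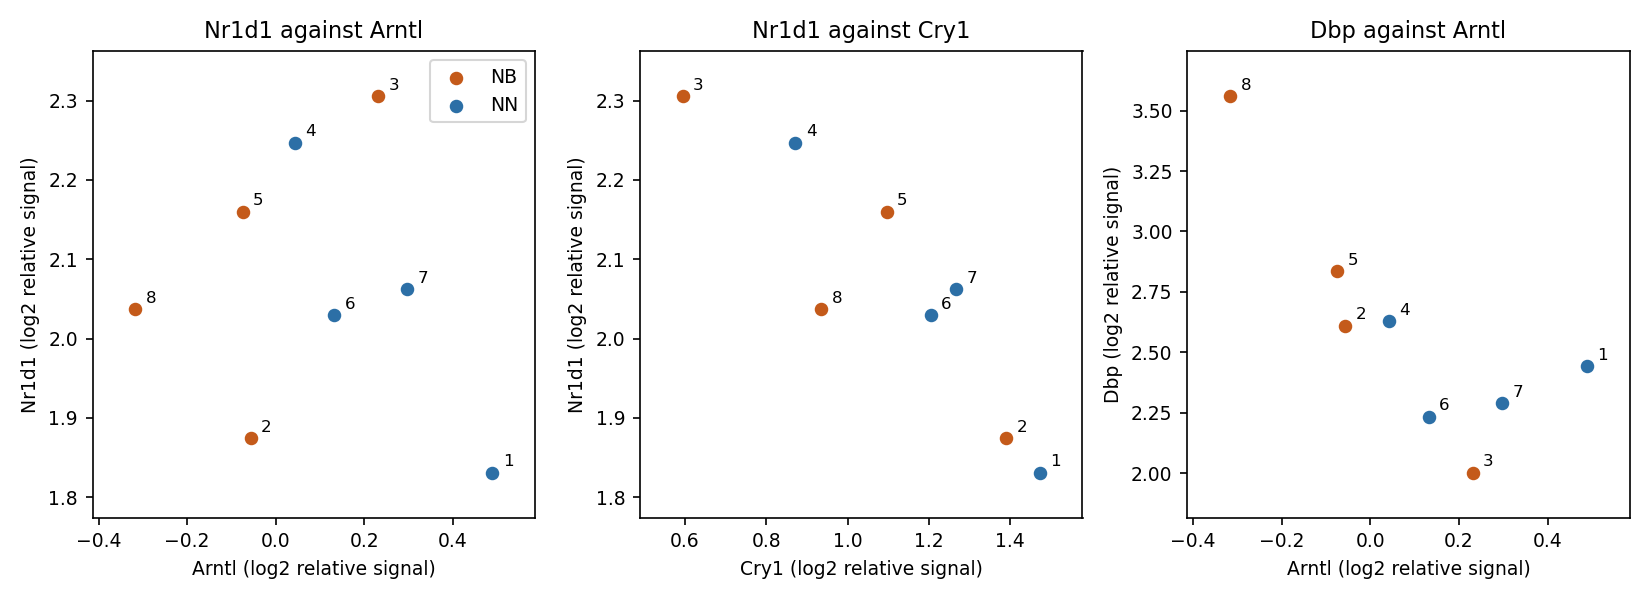
Log2 signal relative to the 75th percentile of the array for 3 pairs of clock genes, 1 point per array with its array number, NB in orange and NN in blue. Nr1d1 falls along Cry1 (r = −0.901) and Dbp along Arntl (r = −0.788), while Nr1d1 has no clear course along Arntl (r = −0.160), and none of the 3 passed adjustment over 45 pairs.

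The regulators around the core loop did not differ between the genotypes by the test either. Of 15 measured regulators (DEC repressors, casein kinases, F-box proteins and others) 0 were called, with 8 positive and 7 negative log2 fold changes and a median of 0.02. Cry2 and Btrc were not analysed here. Their median SD over 8 arrays was 0.103, below that of all features. The log2 fold change was 0.06 (SE 0.0877) for Ciart, which encodes the repressor CHRONO, and 0.18 (SE 0.163) for Bhlhe41, which encodes the repressor DEC2. Bhlhe41 was at 0.01 without NN 7, and Ciart at 0.00849 without NB 2. Cipc, whose product inhibits CLOCK, had −0.09 (SE 0.0786), and Fbxl21, a ubiquitin ligase gene for CRY proteins, had 0.19 (SE 0.127).

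Of 18 further clock output genes 0 were called, with 6 positive and 12 negative log2 fold changes and a median of −0.03. Nfil3, which encodes the repressor E4BP4 that competes with DBP for D-boxes, was the output gene with the smallest unadjusted p. It read 1.32, 1.46, 1.24 and 0.90 in NB, against 1.68, 1.55, 1.66 and 1.61 in NN. All 4 NB arrays lay below all 4 NN arrays, with means of 1.23 ± 0.24 in NB and 1.62 ± 0.06 in NN (SD, n = 4 each). Its log2 fold change was −0.40 (SE 0.119, unadjusted p = 0.00941) and its adjusted limma p was 1.00, so it did not pass the test. Its genotypes did not overlap, which held for 1 of the 18 output genes and for 1.16% of all features. Without NB 8 its log2 fold change was −0.28.

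The relatives of Dbp in the PAR-domain family stayed close to 0, with a log2 fold change of −0.00185 (SE 0.175) for Tef and −0.03 (SE 0.125) for Hlf. Usp2, a deubiquitinase gene with a strong daily rhythm in liver, had −0.00331 (SE 0.102). Nampt, the rate-limiting gene of NAD salvage, had 0.13 (SE 0.176), and Elovl3, a fatty acid elongase gene, had −0.16 (SE 0.206). Alas1, the rate-limiting gene of heme synthesis, read 5.16, 2.87, 5.58 and 6.18 in NB, against 4.34, 3.42, 5.10 and 5.24 in NN. NB 3 was the lowest array and NB 8 the highest, as for Dbp and Per1, and the genotypes overlapped (log2 fold change 0.42, SE 0.695). It was 0.01 without NB 8 and 1.12 without NB 3.

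Several of these output genes were among the most variable features on the arrays, while others varied little, such as Wee1 (percentile 8.75) and Pnpla2 (2.47). A wide spread was not particular to them, since the median SD of the 18 output genes was 0.275. It was 0.445 for the glucocorticoid, 0.426 for the fasting and 0.382 for the feeding genes described below. Named after their values were seen, Alas1 (percentile 99.8 of the SD of all features), Rgs16 (99.8), Lpin1 (99.7), Noct (99.6), Lonrf3 (98.6) and Upp2 (98.3) lay in the upper tail with Per1. Without NB 8 the SD of Lpin1 was 0.45 (percentile 95.3), against 0.99 over 8 arrays, while the other 5 were at percentiles of 98.4 to 99.8. Lpin1, which encodes a phosphatidate phosphatase, read 0.70, −0.24, 0.22 and 3.05 in NB, against 0.40, 0.74, 0.54 and 1.18 in NN. Noct, which encodes the rhythmic phosphatase nocturnin, read −0.78, −1.05, 0.59 and 1.54 in NB, against −0.85, 0.60, 0.66 and 0.54 in NN. In both genes NB 8 was highest and NB 3 lowest, as in Per1 and Dbp, and NN 1 was the lowest NN array. Rgs16, a regulator of G-protein signalling with rhythmic expression in periportal liver, read −2.22, −1.09, −3.45 and −0.45 in NB, against −1.87, −0.65, −2.83 and −1.72 in NN, with NB 8 and NN 4 high and NB 5 and NN 6 low.

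Genes that respond to cues known to reset the liver clock were read beside these patterns. The mean deviation of 7 heat and cold responsive genes was −0.27 on NB 3 and 0.22 on NB 8, that of 8 glucocorticoid responsive genes was 0.10 and 0.45, that of 9 fasting genes was −0.17 and 0.36, and that of 7 feeding genes was −0.22 and 0.19. On NB 3 the glucocorticoid mean rested on Mt1 (log2 signal 5.92) and Mt2 (5.00), each at its highest of the 8 arrays. The other genes of that list lay below their own means there, with Tsc22d3 (2.99) and Tat (3.97) at their lowest. Among the heat and cold genes, the heat shock genes Hspa1a (−4.16) and Hspa8 (3.92) were at their lowest on NB 3. The cold-inducible Cirbp (1.92) was at its highest there, so that mean joins genes that moved in opposite directions. The mean deviation of the 18 output genes was −0.35 on NB 3 and 0.45 on NB 8, and that of the 7 hepatocyte markers was −0.12 and 0.15. On each of these lists NB 8 was thus above NB 3, as it was for Per1, Per2 and Dbp. The other arrays did not all follow that parallel. NB 2 was the lowest array on the glucocorticoid (−0.45), fasting (−0.51), feeding (−0.32) and hepatocyte (−0.124) lists. On NB 2, Per2 (0.21) and Dbp (0.03) were above their means and Per1 (−0.28) was below. NN 4 was the highest array on the feeding list (0.30). The Kupffer cell markers, at 0.23 on NB 3 and 0.14 on NB 8, and the recruited macrophage markers, at 0.32 and −0.03, had the other order. So did the endothelial (0.01 and −0.01), pancreatic acinar (0.06 and −0.11) and skeletal muscle markers (0.08 and −0.07). The stellate cell, cholangiocyte, lymphocyte and adipocyte markers had NB 8 above NB 3. The part of these cues, of hepatocyte RNA, of macrophage RNA or of RNA from the other cell types in the clock readings was not tested.

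Of the heat and cold responsive genes 0 of 7 were called, with 3 positive and a median log2 fold change of −0.01. Cirbp and Rbm3, cold-inducible RNA-binding protein genes, had 0.18 (SE 0.107) and 0.07 (SE 0.140), and the heat shock genes Hspa1a and Hspa8 had −0.40 (SE 0.260) and −0.19 (SE 0.182). Of the glucocorticoid responsive genes 0 of 8 were called, with 4 positive and a median of −0.07. The metallothionein genes Mt1 and Mt2 had 0.77 (SE 0.634) and 1.03 (SE 0.756), and with 1 array left out they lay between 0.24 and 1.24 and between 0.46 and 1.61. Tsc22d3, which encodes GILZ, had −0.41 (SE 0.228), and the tyrosine aminotransferase gene Tat had −0.21 (SE 0.203). Their arrays overlapped between the genotypes, with Mt2 spanning 12.9-fold over the 8 arrays.

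Of the fasting genes 0 of 9 were called, and 8 had a negative log2 fold change (median −0.10). The exception was Cpt1a, the carnitine palmitoyltransferase gene of fatty acid oxidation, at 0.05 (SE 0.0949). The glucose-6-phosphatase gene G6pc had −0.73 (SE 0.336). Of the feeding genes 0 of 7 were called, and all 7 had a negative log2 fold change (median −0.22), with Scd1 at −0.69 (SE 0.270) and Acaca, the acetyl-CoA carboxylase gene, at −0.32 (SE 0.225). Over all features 45.9% had a positive log2 fold change. At an unadjusted limma p under 0.05, the count was 1 for the output genes (Nfil3), 1 for the feeding genes (Scd1) and 0 for the regulators and the heat and cold, glucocorticoid and fasting lists, against 1.69% of all features. No gene on the lists of cell markers was called either. Positive were 5 of 6 Kupffer cell markers and 5 of 5 recruited macrophage markers (medians 0.20 and 0.23). So were 3 of 3 skeletal muscle markers and 2 of 2 adipocyte markers. An unadjusted limma p under 0.05 was reached by 1 hepatocyte marker and 1 stellate cell marker, and by 0 markers of the other cell types. The mean log2 signal of the macrophage markers overlapped between the genotypes, at 0.08 to 0.45 in NB and −0.18 to 0.13 in NN.

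Named genes other than the clock genes above were ranked by their likeness to Arntl and Nr1d1 over the 8 arrays. The ranking required an SD of at least 0.25, which left out most clock regulators, whose median SD was 0.103. The absence of clock genes from the highest ranks was set in part by these limits, so nothing is concluded from it. Among 4039 named genes with an SD of at least 0.25, the highest Pearson r with Arntl was 0.940 for 1700025C18Rik, and among the next it was 0.907 for Gm33088, 0.903 for Gsg1l and 0.902 for Grin3a. With Nr1d1 it was 0.937 for Gpr62, 0.920 for Wscd1, 0.893 for Cln6, 0.885 for Depp1 and 0.884 for Fut7. Each r covers 8 arrays and was picked as the highest of 4039, so it describes likeness on these arrays and carries no test. Under normexp background correction r was 0.784 for 1700025C18Rik, 0.793 for Gpr62 and 0.698 for Wscd1, and with probes averaged per gene it was 0.620 for Grin3a.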

How the data were processed

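Total RNA from mouse liver was labelled with Cy3 and hybridised to 8 1-colour Agilent arrays. Per the file headers, the authors read spots in Agilent Feature Extraction 11.5.1.1 (9.1 per the submitters' processing notes). The deposited processed signal is a spot intensity, background subtracted and detrended within the array, and not normalized between arrays. The deposited value table holds linear intensity values, quantile normalized as its sorted columns are the same (median 84.2), on an unstated scale, and its Spearman correlation with the processed signal was at least 0.998. The build in the file headers is mm9 and all probes are listed as unmapped, so no probe position is given.

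Probe accessions were matched to RefSeq symbols of GRCm38.p6. Outlier spots were dropped, spots of a probe averaged, log2 processed signal scaled to the 75th percentile, probes well above background on at least 4 arrays kept (46848), and each gene read from its brightest probe. This left 42982 features, 23911 of them named. The genotype difference, NB minus NN, was tested in R 4.3.3 by limma 3.58.1 (lmFit, then eBayes, two-sided, Benjamini-Hochberg over all features, threshold 0.05). Member pairs were correlated over 8 arrays with exact two-sided permutation tests, adjusted over 45 pairs. All arrays lay on 1 slide, scanned on 1 day, and both its rows and its columns held both genotypes. The scripts were tested on simulated data.

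The members and lists were chosen with earlier results of these data known, and the phases were assigned after values were seen. The genes named are the 10 members, a fixed set of clock genes, the 2 genes with the smallest p in each direction from each further list, the 5 genes most like Arntl and most like Nr1d1, and F830016B08Rik. Some genes that this rule names are not reported here, and list counts and medians include them. Promoters were searched for 4 kinds of element on both strands. Alternatives covered background correction, scaling, the value table, the filter on dim probes, the probe summary, array weights, the variance model, slide position, genotype means removed and each array left out. Added after seeing the data were the means of slide rows removed before correlation and the dimmer probes of Dbp and Per3, and values without NB 8 for variable output genes and the opposition score.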

Additional observations from a re-analysis of the deposited data

Results flagged for a closer look

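Each named gene, list score and array measure was screened within a genotype, and in 7 of these 74 sets of 4 arrays a lone array was far off. About 5% of sets do so by chance, and the sets share arrays. Among the clock genes, Npas2 on NB 2 had a log2 signal of 0.38, with the remaining NB arrays at 0.03 to 0.07. Per1 on NN 1 had −0.00621, with the remaining NN arrays at 1.05 to 1.23. Nr1d2 on NB 8 had 1.35, with the remaining NB arrays at 1.06 to 1.09. Per3 on NN 4 had −2.27, while the remaining NN arrays were all at −2.08.

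Among the other named genes, the chaperone gene Hspa8 had a log2 signal of 3.92 on NB 3, with the remaining NB arrays at 4.55 to 4.66. Acaca had 2.47 on NB 8, with the remaining NB arrays at 1.83 to 1.84. The mean correlation of NB 8 with the other arrays was 0.990, and the remaining NB arrays had 0.993.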

How the results depend on the processing

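None of the 10 clock genes was called under any alternative run, and no pair passed adjustment in any. The count of features called was 3, and ranged from 2 to 5 (5 with probes averaged per gene), and from 2 to 3 with an array left out. Log2 fold changes near 0 turned their sign: with normexp Per1 (0.0571) and Nr1d2 (0.0121), with array weights Clock (0.0246), Per2 (−0.0202) and Usp2 (0.0466), with median scaling Tef (0.00553) and Usp2 (0.00408), with quantile normalization Tef (0.0227), and with the authors' value table Tef (0.0272) and Usp2 (0.000463). The cause was not tested. The r of Nr1d1 with Per3 was −0.0394 with quantile normalization, −0.000174 with the authors' value table, −0.163 with probes averaged per gene, −0.0454 with genotype means removed and −0.238 with the dimmer probes, and that of Nr1d1 with Dbp was 0.0465 with the authors' value table. Leaving out each array in turn, the log2 fold change lay between −0.0803 and 0.101 for Clock, −0.431 and 0.314 for Per1, −0.0925 and 0.304 for Per2, −0.0184 and 0.125 for Nr1d1, −0.0849 and 0.0350 for Nr1d2, −0.142 and 0.105 for Tef, −0.0926 and 0.0795 for Hlf, −0.0717 and 0.0453 for Usp2, −0.0165 and 0.173 for Rbm3, and −0.00357 and 0.0918 for Cpt1a. The r lay between −0.153 and 0.557 for Arntl with Clock, −0.157 and 0.514 for Arntl with Npas2, −0.363 and 0.332 for Arntl with Nr1d1, −0.539 and 0.0355 for Clock with Nr1d1, −0.289 and 0.157 for Nr1d1 with Dbp, and −0.159 and 0.283 for Nr1d1 with Per3. The median of the feeding list was −0.41 without NB 8. The labels pair no samples, because the genotypes share no replicate numbers, so no pairing by label was made. By position, each slide column held 1 array of each genotype, and with the slide column as a block 3 features were called and 1228 had an unadjusted limma p under 0.05, against 3 and 728 without it. No clock gene was called in that fit, where the lowest unadjusted limma p was 0.0505, for Cry1, against 0.304 without the block. Each genotype had 4 arrays, and the labels give no hour of collection. Intervals were widest for Per1, Per2 and Dbp, and the cause of that width was not tested.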
